A study of Mus musculus with 6 samples.

Results

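Rab GTPases are small membrane proteins that switch between a GDP-bound and a GTP-bound form and, in the GTP form, recruit the tethers, motors and other effectors that move vesicles from one compartment to the next. Each Rab works at its own set of membranes, and its attachment there depends on geranylgeranyl groups that Rab geranylgeranyl transferase adds to cysteines near the C-terminus. The isoprenoid precursors of these groups also feed the side chain of coenzyme Q (CoQ), which the enzyme encoded in part by Pdss2 builds. In hepatocytes, Rab proteins are known for their parts in secretion of plasma proteins and lipoproteins, in receptor endocytosis and in lysosomal turnover.

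The Rab genes were those whose symbol is Rab, digits and at most 1 letter, on probe sets annotated to exactly 1 symbol. By this rule 132 of the 45101 probe sets of the array, reading 59 of 18193 genes, were Rab probe sets. Of these genes, 38 had several probe sets and 21 had 1. Another 13 symbols that begin in the same way, such as Rab3ip and Rab11fip1, name partners of Rabs or other transcripts and were left out with their 29 probe sets. Symbols and gene IDs of all 132 probe sets matched RefSeq.

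Liver RNA came from 3 B6.Alb/cre,Pdss2loxP/loxP mutants, aged 176, 178 and 224 days, and from 3 B6.Pdss2loxP/loxP controls, aged 209, 213 and 140 days, with 1 Affymetrix mouse array per animal. Both groups carried Pdss2 alleles flanked by loxP sites, and the mutants also carried cre recombinase under the albumin promoter, which is active in hepatocytes, so that other liver cells keep the gene. All mice were male, both genotypes were untreated and kept apart in different cages, and food was withdrawn some hours before they were killed. The whole liver was measured, so a smaller number of cells of a type and less RNA per cell cannot be told apart. The label of control 1 names it as the control concurrent with mutant 3, and no other pairing was given.

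All values below are log2 values per probe set, and all differences are mutant minus control on that scale. Median values of the arrays lay between 6.12 and 6.24 in mutants and between 5.92 and 6.12 in controls, and the median difference over all 45037 probe sets was 0.17. This offset shrank to 0.04 after quantile normalization and to 0.01 after median centring, so the Rab differences are set beside those of all genes. Pdss2 itself read 6.94, 6.88 and 7.05 in mutants against 7.46, 7.47 and 7.56 in controls on its brightest probe set, a difference of -0.54 (standard error 0.18, adjusted p = 0.118 from limma). Its other probe sets differed by 0.40 and 0.35, with overlapping groups, and none of the probe sets is known to lie in the deleted part of the gene, so they do not check the deletion. Hepatocyte markers, 13 of 15 of them measured and none at 0, averaged 11.9 to 12.3 in mutants and 12.18 to 12.24 in controls. Their median difference was -0.22 (9 of 13 negative), beside 0.17 over all genes. In 3 of them every mutant lay below every control (23.1%, of all genes 14.1%), and in none above (of all genes 23.3%).

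Of the 132 Rab probe sets, the linear model of limma found none higher and 1 lower in mutants with an adjusted p under 0.05, where 1.25% of all probe sets were higher and 0.746% were lower. Over the whole array this was 561 probe sets higher and 336 lower, and 150 and 150 after median centring. The lower one was a probe set of Rab14, a Rab of transport between Golgi and endosomes. At an unadjusted p under 0.05 the same test had 17 Rab probe sets higher and 26 lower, against 15.7% and 9.54% of all probe sets. Rab14 is read by 7 probe sets. The one past the threshold, one of the dimmest of them, read 6.80, 5.35 and 5.86 in mutants, against 7.98, 7.90 and 7.84 in controls. Every mutant lay more than the whole spread of the controls below the lowest control, and the spread was wider among mutants. The difference was -1.90 with a standard error of 0.35 (3 mice a group, adjusted p = 0.047 from limma), or 26.8% of the control level on the linear scale. The call is lost when any mouse other than mutant 1 is left out (adjusted p = 0.0954 to 0.188), and also with quantile normalization (adjusted p = 0.057) or median centring (adjusted p = 0.0575).

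On the other 6 probe sets Rab14 differed by -0.97 to 0.02, and none of them passed the test. Only one of these, at -0.86, also had every mutant below every control. The brightest probe set of Rab14, whose name ends in s_at for probes shared with other transcripts, read 10.37, 10.15 and 10.06 in mutants and 10.44, 10.52 and 10.28 in controls, with overlapping groups and a difference of -0.22 (adjusted p = 0.531 from limma). The call of Rab14 as lower at the adjusted p therefore stands on 1 of its 7 probe sets.

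To compare genes once each, every gene was read on its brightest probe set, the one of highest mean level in the 6 arrays. On this reading none of the 59 Rab genes passed the adjusted p of limma, and 11 (of all genes 17.3%) were higher and 15 (of all genes 12.2%) lower at an unadjusted p under 0.05. A coarser reading is whether the groups overlap. In 10 of the 59 Rab genes (16.9%) every mutant lay above every control, where 23.3% of all genes did so. In 15 of 59 (25.4%) every mutant lay below every control, where 14.1% of all genes did so. The 15 included Rab1a, Rab1b, Rab33b and Rab43 of the Golgi and Rab5a, Rab5c and Rab21 of early endosomes. They also held Rab4a, Rab11a and Rab11b of recycling endosomes, Rab10 of exocytic vesicles and Rab18 of lipid droplets. The others were Rab7, Rab9 and Rab29, listed under late endosome and lysosome. The 10 were Rab3a, Rab3c, Rab27a, Rab37 and Rab44 of secretory granules, Rab2b, Rab39 and Rab39b of the Golgi, Rab15 of recycling endosomes and Rab7b of late endosomes. The median difference was 0.04 over the 59 Rab genes and 0.17 over all genes, and after quantile normalization it was -0.06 and 0.06. The counts of 10 and 15 became 10 and 16 after quantile normalization and 9 and 18 after median centring, with backgrounds of 19.2% and 15.4%, and of 15.9% and 18.2%. Genes whose sign turned under quantile normalization (9) or median centring (11) all had overlapping groups, and of the 25 named, Rab39 lost its gap under both and Rab10 under quantile normalization. When the test of limma was restricted to these 18193 probe sets, it called Rab27a and Rab7b higher and Rab5a, Rab7 and Rab29 lower, beside 4.92% and 4.11% of all genes. When the probe sets of each gene were averaged first, it called none higher and Rab5a and Rab29 lower, beside 1.7% and 1.06% of all genes.

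**Figure D1:**
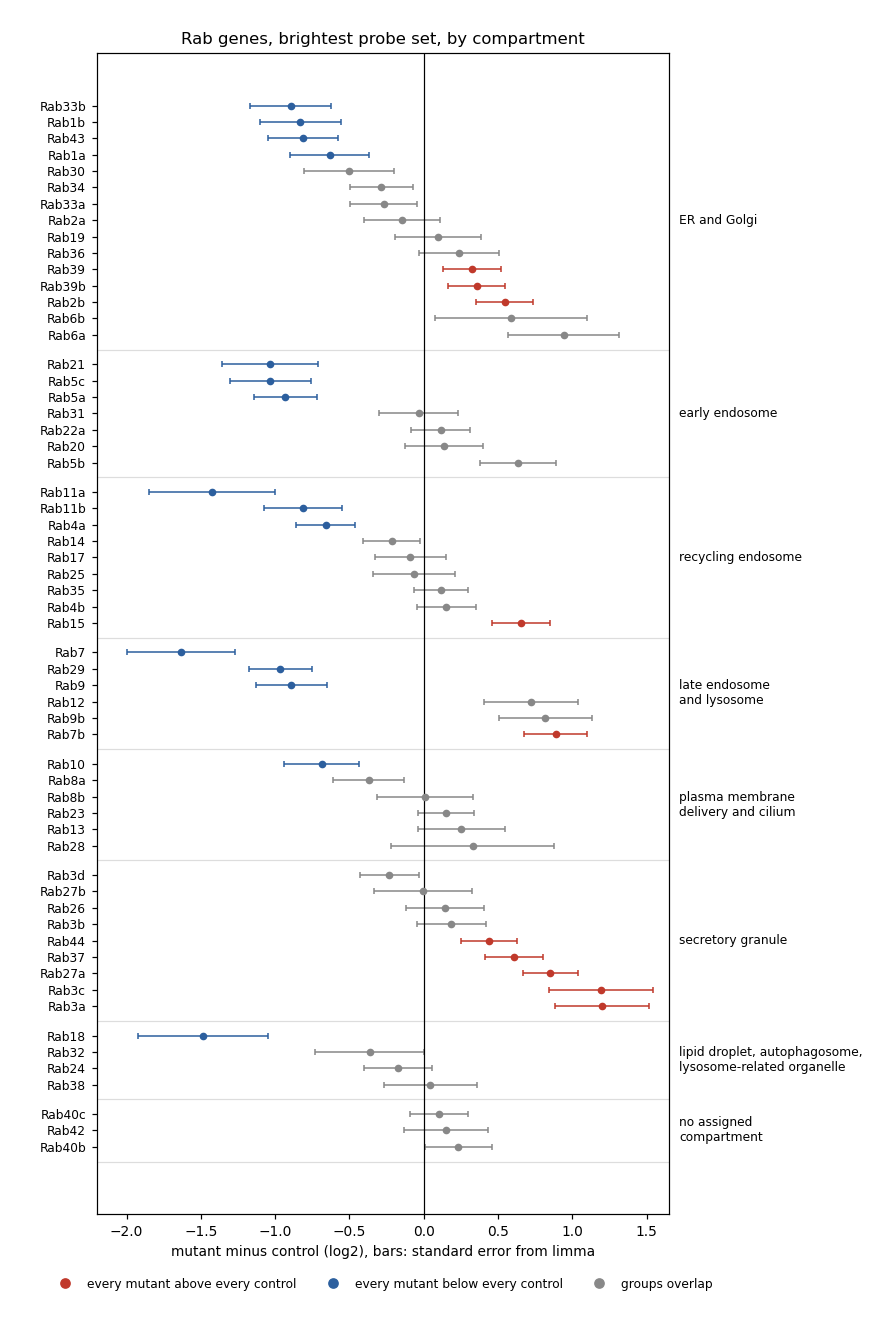
Difference between mutants and controls (horizontal axis, log2, mutant minus control) of 59 Rab genes, each on its brightest probe set, grouped by compartment down the page. Points are differences with their standard errors from limma, red where every mutant lies above every control, blue where every mutant lies below every control and grey where groups overlap; 15 genes are blue, spread over 6 compartments, and 5 of the 10 red genes are Rabs of secretory granules.

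Stretches of promoter are shown for the gene past the threshold, for a pair of genes of the endocytic route that were lower in every mutant and for a pair of secretory granule genes that were higher in every mutant. Each is the 150 bases that precede the start listed first for the gene in RefSeq on GRCm38.p6, written 5' to 3' on the strand of the gene, with GGGCGG (GC box) and CACGTG (E-box) in capitals, in either orientation.
Rab14, chr2:35201121-35201270, - strand: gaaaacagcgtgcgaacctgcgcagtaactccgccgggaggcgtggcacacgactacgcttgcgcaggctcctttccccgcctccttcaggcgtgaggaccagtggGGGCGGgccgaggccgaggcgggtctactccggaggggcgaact
Rab7, chr6:88045271-88045420, - strand: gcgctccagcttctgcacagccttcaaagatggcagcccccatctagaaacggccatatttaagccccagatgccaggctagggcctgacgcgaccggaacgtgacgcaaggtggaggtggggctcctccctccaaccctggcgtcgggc
Rab5a, chr17:53479084-53479233, + strand: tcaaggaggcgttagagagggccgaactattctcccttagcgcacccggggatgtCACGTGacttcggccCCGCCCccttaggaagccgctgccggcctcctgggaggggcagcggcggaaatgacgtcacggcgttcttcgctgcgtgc
Rab3a, chr8:70754553-70754702, + strand: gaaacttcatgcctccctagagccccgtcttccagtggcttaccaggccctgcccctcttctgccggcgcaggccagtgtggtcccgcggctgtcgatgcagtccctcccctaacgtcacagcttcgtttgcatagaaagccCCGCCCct
Rab27a, chr9:73044660-73044809, + strand: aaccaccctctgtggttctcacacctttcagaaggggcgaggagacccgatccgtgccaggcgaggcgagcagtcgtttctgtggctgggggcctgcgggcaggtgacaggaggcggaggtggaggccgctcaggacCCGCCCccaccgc
A GC box stands in the stretches of Rab14, Rab5a, Rab3a and Rab27a and an E-box in that of Rab5a, and Rab7 has neither in this window. Motifs were looked for on both strands in the 250 bases before the start of the 48 Rab genes with a RefSeq promoter. GGGCGG was found in 68.8% of Rab promoters, against 32.9% of 27025 promoters of all genes. CCAAT was found in 45.8% against 34.5%, CACGTG in 8.33% against 6.05%, and CCGGAAG, an ETS site, in 6.25% against 7.05%. Rab promoters had a median GC content of 60.6%, against 52.0% over all genes. The GC box stood in 9 of the 13 promoters of genes lower in every mutant, in 6 of the 7 of genes higher in every mutant and in 18 of the 28 of genes whose groups overlap. A match is only a run of letters in these windows.

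Among the Rabs that were lower in every mutant, the mice did not differ alike. The median over these 15 genes, each taken as its value minus its mean over 6 arrays, was 0.07, -0.75 and -0.66 in mutants 1 to 3, against 0.44, 0.56 and 0.38 in controls 1 to 3. Mutant 1 thus stood between the controls and the other mutants. Of the 25 Rab probe sets with every mutant below every control (18.9% of 132, background 10.7%), mutant 1 was the mutant nearest the controls in 21 (84.0%), as it was in 73.3% of such probe sets over the whole array. Of the 22 with every mutant above every control (16.7%, background 21.2%), it was nearest in 8 (36.4%), as it was in 48.5% of such probe sets over the whole array. Without mutant 1, limma called 4 Rab probe sets higher and 22 lower, beside 2.86% and 5.66% of all probe sets. With any other single mouse left out it called no Rab probe set, and at most 3 of all probe sets.

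**Figure D2:**
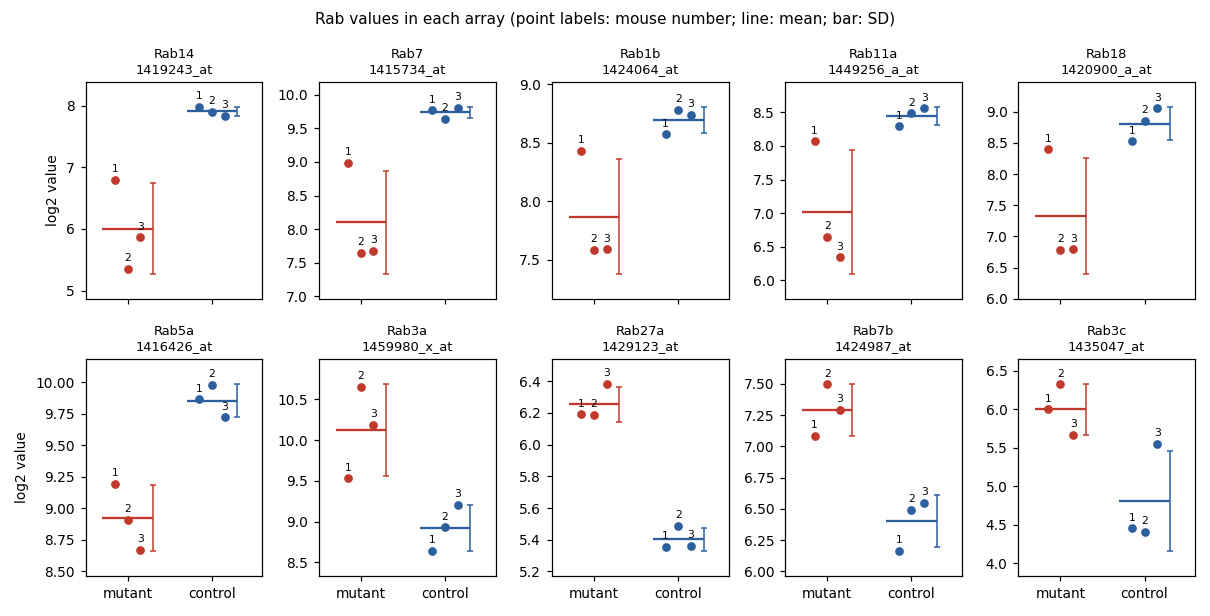
Log2 value (vertical axis, different range in each panel) of 10 Rab probe sets in each mutant (red) and each control (blue), with the mouse number at each point, a line at the group mean and a bar of 1 SD. In the panels of Rab7, Rab1b, Rab11a and Rab18 mutant 1 lies between the controls and mutants 2 and 3, while in the panel of Rab27a the 3 mutants lie at 6.19 to 6.38 and the controls at 5.36 to 5.49.

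The array values that follow are given for the 5 genes with the brightest probe sets, Rab14, Rab1a, Rab10, Rab9 and Rab3a, and for others chosen after their values were seen. Rabs of the endoplasmic reticulum and Golgi numbered 15, with a median difference of -0.15. Without overlap 4 of the 15 were lower (background 14.1%) and 3 higher (background 23.3%). Rab1a and Rab1b direct vesicles from the endoplasmic reticulum to the Golgi. Rab1a read 10.37, 9.49 and 9.64 in mutants, against 10.40, 10.54 and 10.46 in controls, on its brightest probe set. Mutant 1 lay just under the controls and the other mutants well below it, for a difference of -0.63 (standard error 0.26, adjusted p = 0.183 from limma). A dimmer probe set of the gene differed by -1.38 (adjusted p = 0.0659 from limma), with no overlap. Rab1b read 8.43, 7.58 and 7.59 in mutants, against 8.57, 8.78 and 8.74 in controls, a difference of -0.83 (standard error 0.27). Mutants 2 and 3 were alike and mutant 1 was again nearest the controls.

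Rab33b, a Golgi Rab that binds the autophagy protein Atg16l1, differed by -0.90, and Rab43, which acts in Golgi traffic, by -0.81 (adjusted p = 0.1 and 0.0901 from limma). Rab2b read 7.46, 7.74 and 7.41 in mutants, against 7.03, 6.89 and 7.05 in controls, a difference of 0.55 (adjusted p = 0.134 from limma). Its close relative Rab2a, with 7 probe sets, had negative differences on 6 of them. On the probe set with the most negative difference Rab2a read 8.78, 7.33 and 7.33 in mutants, against 9.17, 9.39 and 9.38 in controls, a difference of -1.50 (standard error 0.39, adjusted p = 0.0754 from limma). On its brightest probe set the groups overlapped, at -0.15, and the sign turned under quantile normalization. Rab39 and Rab39b were higher in every mutant by 0.32 and 0.36, Rab39 not so after either rescaling. The remaining 7 Golgi genes, Rab6a, Rab6b, Rab19, Rab30, Rab33a, Rab34 and Rab36, lay between -0.50 (Rab30) and 0.94 (Rab6a) with overlap.

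Rab5 proteins govern the fusion of early endosomes, and Rab21 the uptake of integrins. Of the 7 early endosome genes, 3 were lower without overlap (42.9%, background 14.1%) and none was higher (background 23.3%). The median difference was -0.03, and 0.02 without mutant 2 or 0.06 without control 1. Relative to the mean of each gene, the median of the list was -0.03, -0.48 and 0.03 in mutants and 0.20, 0.08 and 0.33 in controls, without overlap. Rab5a, read by 1 probe set, had 9.20, 8.91 and 8.67 in mutants, against 9.86, 9.98 and 9.72 in controls. The gap between the groups was wider than the spread of the controls, and the difference was -0.93 (standard error 0.21, adjusted p = 0.0614 from limma), or 52.5% of the control level. Rab5c read 7.37, 6.47 and 6.52 in mutants, against 7.85, 7.77 and 7.84 in controls (difference -1.03, adjusted p = 0.0781 from limma). Rab21 read 7.90, 6.78 and 6.77 in mutants, against 8.10, 8.26 and 8.19 in controls (difference -1.03, adjusted p = 0.104 from limma). In both, mutants 2 and 3 lay together and mutant 1 closer to the controls. The third Rab5 gene, Rab5b, differed by 0.63 with overlap, so the Rab5 genes differed in sign. Rab22a, Rab20 and Rab31 differed by 0.12, 0.13 and -0.03 with overlap, though a dimmer probe set of Rab22a had every mutant below every control (-0.92, adjusted p = 0.0622 from limma).

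In recycling endosomes, Rab4 proteins serve a fast and Rab11 proteins a slow return of receptors to the surface. Of 9 genes, 3 were lower (33.3%, background 14.1%) and 1 was higher (11.1%, background 23.3%) without overlap, with a median of -0.09. Rab11a read 8.07, 6.65 and 6.34 in mutants, against 8.29, 8.48 and 8.56 in controls, a difference of -1.43 (standard error 0.42, adjusted p = 0.0952 from limma). Its dimmer probe set, at 6.70, 5.76 and 6.42 in mutants against 7.24, 7.63 and 7.59 in controls, gave -1.20, and the groups overlapped on neither. Rab11b differed by -0.81 and Rab4a by -0.66 on the brightest probe set, but their dimmer probe sets, at 0.10 to 0.47, had overlapping groups. Rab15, studied mainly in neurons, read 7.21, 7.25 and 7.06 in mutants, against 6.57, 6.68 and 6.31 in controls, a difference of 0.65 (adjusted p = 0.0957 from limma). The 5 others (Rab14, Rab17, Rab25, Rab35 and Rab4b) lay between -0.22 and 0.15.

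Rab7 drives fusion of late endosomes with lysosomes, Rab9 the return of mannose 6-phosphate receptors to the Golgi, and Rab29 brings the kinase Lrrk2 to membranes. These 3 were the late endosomal genes that were lower in every mutant, of 6 in all (background 14.1%). Of the 6, 1 was higher in every mutant (background 23.3%). Rab7 had the most negative difference of any Rab gene on its brightest probe set. It read 8.99, 7.64 and 7.68 in mutants, against 9.77, 9.65 and 9.80 in controls, a difference of -1.64 (standard error 0.36, adjusted p = 0.0593 from limma), or 32.2% of the control level. Its dimmer probe set differed by -0.12 with overlap. Rab9 read 9.62, 8.96 and 9.47 in mutants, against 10.12, 10.44 and 10.16 in controls (difference -0.89, standard error 0.24, adjusted p = 0.0783 from limma). Rab29 read 6.13, 5.73 and 6.13 in mutants, against 7.15, 6.94 and 6.79 in controls (difference -0.97, adjusted p = 0.0582 from limma). Unlike in most of the lower genes, mutants 1 and 3 of Rab29 lay together. Rab7b, a separate gene that acts between late endosomes and the Golgi and is known from monocytes, was higher in every mutant. It read 7.08, 7.50 and 7.29 in mutants, against 6.16, 6.49 and 6.55 in controls, a difference of 0.89 (standard error 0.21, adjusted p = 0.0662 from limma), and another of its 3 probe sets was also higher in every mutant, at 0.81. Rab9b and Rab12 differed by 0.82 and 0.72 with overlap.

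Of 6 genes of plasma membrane delivery and cilium, none was higher in every mutant (background 23.3%). Only Rab10, which with Rab8a delivers vesicles to the plasma membrane, was lower in every mutant (16.7%, background 14.1%). It read 9.75, 9.32 and 9.84 in mutants, against 10.42, 10.60 and 9.95 in controls, a difference of -0.69 (standard error 0.25, adjusted p = 0.142 from limma). All 3 probe sets of Rab10 had every mutant below every control, at -1.05 to -0.68, before quantile normalization. Rab8a (-0.37), Rab8b (0.01), Rab13 (0.25), Rab23 (0.15) and Rab28 (0.33) had overlapping groups, and the median of 0.08 became -0.06 after quantile normalization and -0.08 after median centring. Among Rabs of lipid droplets, autophagosomes and lysosome-related organelles, Rab18 of lipid droplets read 8.40, 6.79 and 6.80 in mutants, against 8.53, 8.86 and 9.06 in controls. Mutants 2 and 3 lay far below mutant 1, which was close to the lowest control, and the difference was -1.49 (standard error 0.44, adjusted p = 0.0935 from limma). The other probe set of Rab18 differed by 0.58 with overlap. Rab24, Rab32 and Rab38 differed by -0.17, -0.36 and 0.04 with overlap, as did Rab40b, Rab40c and Rab42, which were assigned to no compartment, at 0.23, 0.11 and 0.15.

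**Figure D3:**
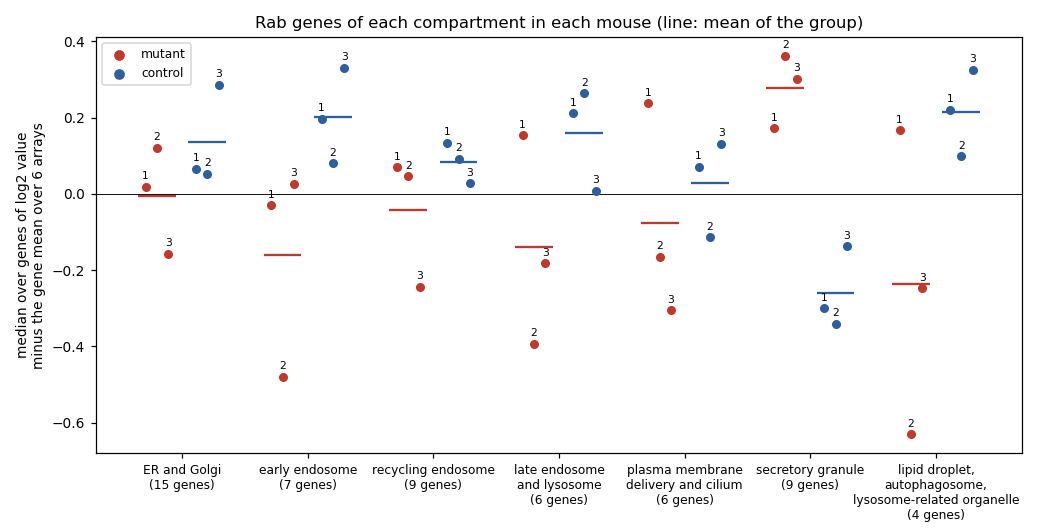
Median over the Rab genes of each compartment (horizontal axis, with the number of genes) of the log2 value minus the mean of the gene over 6 arrays (vertical axis), in each mutant (red, left) and control (blue, right), with mouse numbers and a line at the group mean. In the secretory granule genes the mutants lie at 0.17 to 0.36 and the controls at -0.34 to -0.14, in the early endosome genes the mutants lie at -0.48 to 0.03 and the controls at 0.08 to 0.33, and in the other compartments the groups overlap.

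Secretory granule Rabs held the largest share of genes higher in every mutant among the compartments. Rab3 proteins and Rab27 proteins hold secretory vesicles ready for release in neurons, endocrine cells and leukocytes. Of the 9 genes, 5 were higher in every mutant and none was lower, where 23.3% and 14.1% of all genes were, with a median difference of 0.44 beside 0.17 over all genes. After quantile normalization this median was 0.27 and after median centring 0.28. The median of these genes in each array was 0.17, 0.36 and 0.30 in mutants and -0.30, -0.34 and -0.14 in controls, relative to each gene's mean, and the groups did not overlap. Only 2 of the 9 were read above the median level of all probe sets. In the second quartile of level, 24.5% of all probe sets were higher and 4.85% lower without overlap. Rab27a read 6.19, 6.19 and 6.38 in mutants, against 5.36, 5.49 and 5.36 in controls, a difference of 0.85 (standard error 0.18, adjusted p = 0.0564 from limma). Each group was tight, and the gap between them exceeded the spread within either. On its 3 dimmer probe sets Rab27a differed by 0.36 to 0.58 with overlap.

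Rab3a, the main Rab of synaptic vesicles, read 9.53, 10.65 and 10.19 in mutants, against 8.64, 8.93 and 9.21 in controls, a difference of 1.20 (standard error 0.31, adjusted p = 0.0757 from limma). Its probe set name ends in x_at, which on this kind of array marks probes that can bind other transcripts, and the other probe set differed by 0.36 with overlap. Rab3c read 5.67 to 6.33 in mutants, against 4.45, 4.41 and 5.55 in controls (difference 1.19, adjusted p = 0.0924 from limma), with control 3 close under the lowest mutant. Rab37, known from mast cells, read 5.83, 5.89 and 6.08 in mutants, against 5.37, 5.16 and 5.45 in controls (difference 0.61, adjusted p = 0.108 from limma). Rab37 also had no overlap on its dimmer probe set, at 0.29. Rab44 differed by 0.44 without overlap, and Rab3b (0.19), Rab3d (-0.23), Rab26 (0.15) and Rab27b (-0.00) with overlap.

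Markers of liver cells other than hepatocytes were also read, and each list held differences of both signs. Their median difference was 0.20 for endothelial markers (3 of 15 negative) and 0.49 for Kupffer cell and macrophage markers (2 of 14 negative), beside 0.17 over all genes. It was 0.58 for bile duct (1 of 7), 0.37 for lymphocyte and neutrophil (3 of 11), 0.42 for erythroid (1 of 4) and 0.04 for stellate cell markers (5 of 13). Averaged over their lists, endothelial markers (all 15 measured) lay at 7.60 to 8.20 in mutants and 7.29 to 7.60 in controls, the lowest mutant level with the highest control, and Kupffer cell and macrophage markers (14 of 15) at 6.82 to 7.35 in mutants and 6.30 to 6.77 in controls. Bile duct markers (7 of 10) lay at 6.11 to 6.31 in mutants and 5.57 to 5.85 in controls, lymphocyte and neutrophil markers (11 of 13) at 5.88 to 6.29 in mutants and 5.67 to 5.76 in controls, and erythroid markers (4 of 8) at 7.46 to 8.07 in mutants and 7.14 to 7.36 in controls. Stellate cell markers (all 13) overlapped, at 7.61 to 8.08 in mutants and 7.64 to 7.92 in controls. No listed marker was at 0, and Stab1 and Stab2 of sinusoidal endothelium and the globin Hbb-b2 were the ones past the adjusted p. Their part in the Rab differences was not tested.

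Whether a Rab counted as lower depended on the probe set read. Of the 38 Rab genes with several probe sets, 18 (47.4%) had differences of both signs, against 50.8% of all genes with several. No Rab gene had every mutant below every control on one probe set and above on another. The widest ranges were those of Rab18 (-1.49 to 0.58), Rab14 (-1.90 to 0.02) and Rab2a (-1.50 to 0.09). Rab6a, which serves transport within the Golgi, spanned -0.60 to 0.94, and its brightest probe set is also named x_at. Of the 132 Rab probe sets 6 are named x_at and 7 s_at, names for probes shared with other transcripts, and probe sets so named stood for 7 of the 59 genes.

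**Figure D4:**
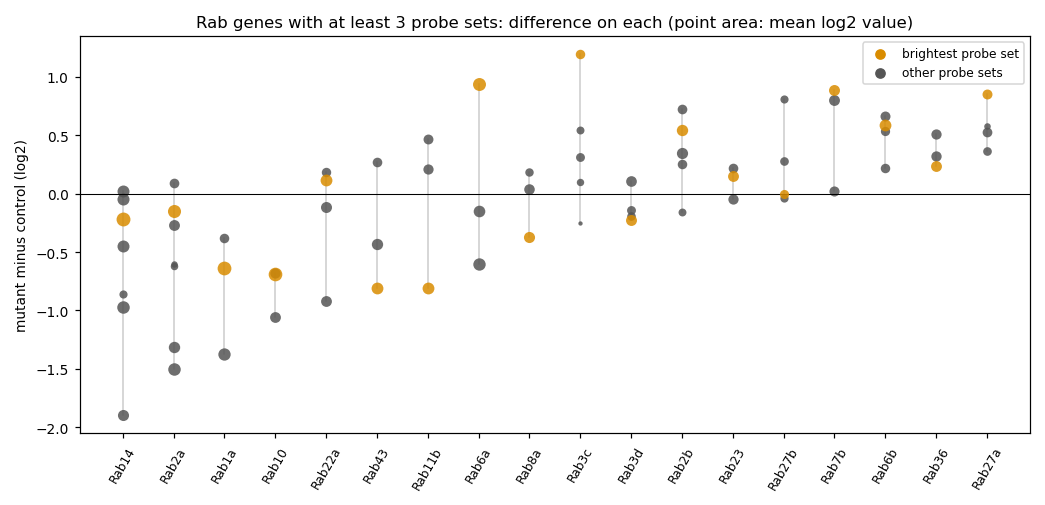
Difference between mutants and controls (vertical axis, log2, mutant minus control) on each probe set of the Rab genes with at least 3 probe sets (horizontal axis), with the brightest in orange and the others in grey, and with point area growing with the mean log2 value. Rab10 and Rab1a lie below 0 on every probe set, Rab27a and Rab36 above 0 on every one, and Rab14 stretches from -1.90 to 0.02.

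Of the 25 Rab probe sets with every mutant below every control, 15 lay in the top quartile of mean level. Over the whole array 2819 of 4806 such probe sets did. Of the 38 Rab probe sets in the top quartile of mean level (above 7.05), 15 (39.5%) had every mutant below every control and 3 (7.89%) every mutant above, against 25% and 19.4% of all probe sets of that quartile. The median difference there was -0.44 for Rabs and -0.06 for all. In the next quartile down, 8 of 35 Rab probe sets were lower (22.9%, background 10.9%) and 6 higher (17.1%, background 25.6%). In the second quartile none of 29 was lower (background 4.85%) and 7 were higher (background 24.5%), and in the dimmest 2 of 30 were lower (background 1.94%) and 6 higher (background 15.3%). With the fit restricted to probe sets above the median level, 3 Rab probe sets were higher and 10 lower at the adjusted p of limma, where 7.05% and 6.5% of these probe sets were. The higher ones read Rab3a and Rab7b, and the lower ones Rab1a, Rab2a, Rab5a, Rab5c, Rab7, Rab9, Rab11a, Rab14, Rab22a and Rab29.

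**Figure D5:**
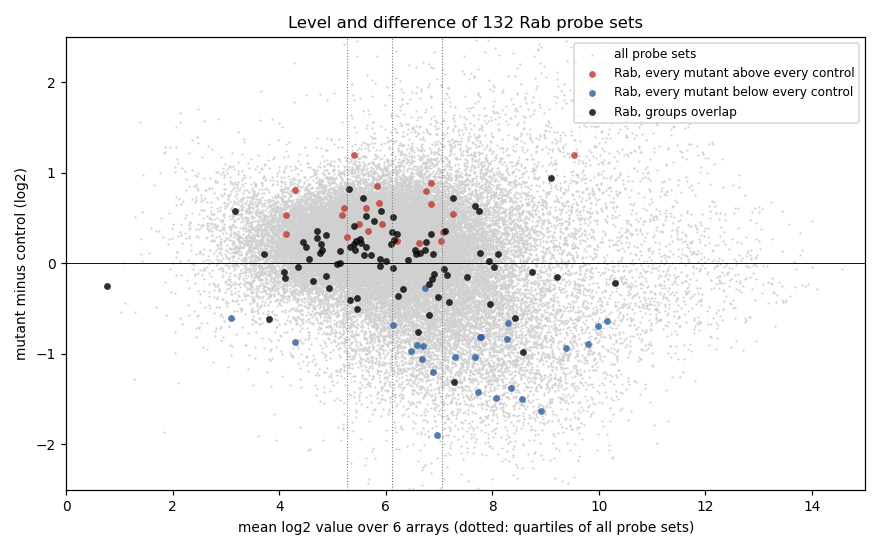
Mean log2 value over 6 arrays (horizontal axis) and difference between mutants and controls (vertical axis, log2) of all probe sets (light grey; 45 beyond 2.5 either way are not drawn) and of 132 Rab probe sets, red where every mutant lies above every control, blue where every mutant lies below every control and black where groups overlap. Dotted lines mark the quartiles of level, and of the 25 blue points 15 lie right of the last line, at 7.05.

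Genes that attach lipids to Rabs or recycle them were also read, in a list that held genes of other prenylation and of isoprenoid supply too (15 of 16 listed). None passed the adjusted p of limma, at an unadjusted p under 0.05 there were 2 higher and 3 lower (17.3% and 12.2% of all genes), and the median difference was -0.17. Without overlap 3 were higher and 6 lower, where 23.3% and 14.1% of all genes were. The 6 were Chm, Rabggtb and Gdi2 and, from the wider prenylation genes, Fnta, Icmt and Zmpste24. The subunits of Rab geranylgeranyl transferase ran opposite ways. Rabggta read 8.71, 9.21 and 8.46 in mutants, against 8.13, 8.12 and 7.85 in controls, a difference of 0.75 (adjusted p = 0.113 from limma). Rabggtb read 7.71, 7.82 and 8.18 in mutants, against 8.45, 8.33 and 8.27 in controls, a difference of -0.44 (adjusted p = 0.226 from limma). Of the escort proteins that present new Rabs to the enzyme, Chm differed by -0.69 and Chml by 0.89 (adjusted p = 0.115 and 0.107 from limma), both without overlap. Gdi2, which extracts Rabs from membranes, differed by -0.17 without overlap. Fnta, the subunit shared by the farnesyltransferase and the type I geranylgeranyl transferase, and the protease Zmpste24 were lower in every mutant, by -0.89 and -1.50 (adjusted p = 0.0695 and 0.0819 from limma). Ggps1, which makes geranylgeranyl diphosphate, and Fdps, which makes its farnesyl precursor, had overlapping groups, and Fdps ranged from 7.39 to 10.29 among mutants and from 8.52 to 9.21 among controls.

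Of 47 measured exchange factors, which load Rabs with GTP, none was higher and 1 was lower at the adjusted p of limma. Of all genes 1.73% and 1.04% were. At an unadjusted p under 0.05, 5 exchange factors were higher and 6 lower, where 17.3% and 12.2% of all genes were. The one lower at the adjusted p was Trappc1, a subunit of the TRAPP complexes that activate Rab1. It read 7.35, 6.39 and 6.41 in mutants, against 8.24, 8.24 and 8.33 in controls, a difference of -1.56 (standard error 0.29, adjusted p = 0.047). Of 38 GTPase-activating proteins, which switch Rabs off, 1 was higher and 2 were lower at the adjusted p of limma. At an unadjusted p under 0.05, 2 were higher and 8 lower, beside the same 17.3% and 12.2%. Without overlap 5 were higher (13.2%, background 23.3%) and 11 lower (28.9%, background 14.1%). Evi5, a TBC domain protein, read 12.15, 12.72 and 12.53 in mutants, against 11.25, 10.93 and 10.61 in controls, a difference of 1.54 (standard error 0.25, adjusted p = 0.0385). The TBC domain genes Tbc1d8b and Tbc1d12 differed by -1.56 and -1.40 (adjusted p = 0.0322 and 0.0345), with mutants at 5.78 to 6.22 and 5.09 to 5.40, against controls at 7.50 to 7.60 and 6.41 to 6.84. All of these calls are lost when mutant 2, mutant 3, control 2 or control 3 is left out, since no probe set of the array is then called. Of 59 effectors none was called, and the median difference was 0.25. At an unadjusted p under 0.05, 11 effectors were higher and 8 lower, where 17.3% and 12.2% of all genes were. Without overlap 15 effectors were higher (25.4%) and 9 lower (15.3%), close to the shares of 23.3% and 14.1% over all genes.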

How the data were processed

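Total RNA from flash-frozen liver was extracted with Trizol and hybridized to Affymetrix arrays, 1 per mouse. The authors used dChip for normalization and for PM-only summaries, and the deposited values are 1 log2 intensity per probe set and array. A worm array is named in the methods, whereas the probe set names belong to a mouse array. The version of dChip and its baseline array are not stated in the sources used here. Detection calls were not used, so the signal over background is unknown, and precision is limited by the number of arrays.

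Of 45101 probe sets, 64 Affymetrix controls were left out. Gene symbols came from the annotation of the platform: 34958 probe sets had 1 symbol, 932 several and 9211 none, and 0 of those with several named a Rab. The values were used without rescaling, 40 zeros included. The test of mutants against controls was that of limma 3.58.1 (lmFit, eBayes, under R 4.3.3), two-sided, with Benjamini-Hochberg adjustment over 45037 probe sets and an adjusted p under 0.05, after a test on simulated data. For 1 value, exact permutation of 3 and 3 mice cannot give a p below 0.1. Groups were called not overlapping where every mutant lay on the same side of every control.

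Members, compartments and related lists were chosen with earlier results of these data known, so no p is given for a list. Named with array values were members past the adjusted p, the 5 genes with the brightest probe sets, and genes of related lists past the adjusted p, and the others after their values were seen. Alternatives were quantile normalization, median centring, trend and robust options, age as a covariate, a replicate block, probe sets above the median level, 1 probe set or the mean per gene, no zeros, and each mouse left out in turn. The fit without both mutant 2 and control 3, and all alternatives for overlap of groups, were added after seeing the data. Motifs were counted with Python 3.11.15 and figures drawn with matplotlib 3.10.9. Rab protein sequences were not analysed here.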

Additional observations from a re-analysis of the deposited data

Results flagged for a closer look

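The bacterial transcripts BioB, BioC and BioD, which are added to each sample at a fixed amount before hybridization and belong to no mouse gene, were read by 7 control probe sets. Their mean log2 value was 11.06, 11.66 and 11.39 in mutants and 9.93, 9.72 and 9.49 in controls, 1.66 higher in mutants (exact two-sided permutation test, p = 0.1, the smallest possible here). They are given because a signal outside the comparison of genes differed between the groups without overlap. Its part in the Rab differences was not tested.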

How the results depend on the processing

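Counts of Rab probe sets past the adjusted p of limma (0 higher and 1 lower as reported) ranged from 0 to 4 higher and from 0 to 22 lower with 1 mouse left out, the highest without mutant 1. They were 0 and 0 under quantile normalization, median centring, the replicate block and without both mutant 2 and control 3, 1 and 2 with trend and robust options, 2 and 4 with age as a covariate and 3 and 10 among probe sets above the median level. Counts of Rab genes on their brightest probe set (0 and 0) ranged from 0 to 3 higher and from 0 to 12 lower with 1 mouse left out. They were 1 and 1 with trend and robust options, 2 and 2 with age, 2 and 5 above the median level, 2 and 3 with 1 probe set a gene tested, and 0 and 2 after averaging each gene's probe sets. Over all probe sets, limma called 561 higher and 336 lower as deposited, 461 and 228 after quantile normalization, 150 and 150 after median centring, 1392 and 1123 with age and 1289 and 2551 without mutant 1. With the replicate block it called 0 (7935 at an unadjusted p under 0.05), as it did without mutant 2 (8983), mutant 3 (8663), control 2 (7526) or control 3 (11749).

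Compartment medians moved by more than the spread between mice in several settings. That of ER and Golgi became -0.31 after median centring and -0.0053 without control 1. That of recycling endosome became -0.25 after median centring, -0.24 without mutant 2 and -0.26 without both mutant 2 and control 3. Those of early and late endosome became -0.93 and -0.89 above the median level. That of plasma membrane delivery and cilium became -0.14 without mutant 1. That of secretory granule became 0.27 after quantile normalization and 0.28 after median centring. With 1 mouse left out the compartment medians ranged from -0.25 to -0.0053 for ER and Golgi, from -0.22 (without mutant 1) to 0.06 (without control 1) for early endosome, from -0.24 to 0.026 for recycling endosome, from -0.25 to -0.0043 for late endosome, from -0.40 to -0.12 for lipid droplet and from -0.14 to 0.16 for plasma membrane delivery and cilium. Genes with every mutant above every control (10) numbered 4 above the median level, where fewer genes were read, 17 without both mutant 2 and control 3 (42.7% of all genes) and 11 to 14 with 1 mouse left out (25.5% to 38.0% of all genes). Those with every mutant below (15) numbered 15 of the 40 above the median level (37.5%, background 20.3%). With 1 mouse left out they numbered 15 to 20 (at least 15.1% of all genes), and fewer mice make a gap between groups easier to reach. Under the alternatives that read the same probe set, the sign turned at least once in 19 of the 34 Rab genes whose groups overlap. It turned in 0 of the 25 whose groups do not. For the fits with mice left out this 0 was fixed in advance, since dropping mice cannot turn the sign without overlap. The cause of these shifts was not tested.

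Same-numbered mice did not deviate together (correlations of 0.06, -0.50 and -0.56 over all probe sets), and mutant 2 went with control 3 at 0.62. These correlations cannot show whether mice were matched by number, since deviations from a mean of 3 mice depend on one another. Mutant 3 and control 1, which a label calls concurrent, correlated at 0.45, and no fit with this single pair as a block was made. Without detection calls, how far dim Rab probe sets stand above background is unknown.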

Other observations

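Other small GTPases of the array were read in the same way, each gene on its brightest probe set. Of 17 measured genes of the Arf and Sar family, which start the budding of vesicles from Golgi and endoplasmic reticulum, none passed the adjusted p of limma (2 higher and 10 lower at an unadjusted p under 0.05, where 17.3% and 12.2% of all genes were). In 9 of them every mutant lay below every control (52.9%, background 14.1%) and in 2 every mutant lay above (11.8%, background 23.3%), with a median difference of -0.55. Arf3 read 7.22, 5.70 and 6.01 in mutants, against 7.91 to 8.15 in controls, a difference of -1.71 (adjusted p = 0.0591 from limma). Arf4, a Golgi GTPase, read 9.03, 6.96 and 7.42 in mutants, against 9.27, 9.22 and 9.64 in controls, a difference of -1.57 (adjusted p = 0.105 from limma). Sar1b, which forms the coat of vesicles leaving the endoplasmic reticulum and is needed for lipoprotein export, read 11.08, 9.90 and 9.60 in mutants, against 11.47, 11.60 and 11.52 in controls, a difference of -1.33 (adjusted p = 0.0838 from limma). In all 3, as in most of the lower Rabs, mutant 1 was the mutant nearest the controls.

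Of 25 Ras family genes, which relay growth signals, none was called, and the median difference was -0.03. At an unadjusted p under 0.05 by limma, 2 were higher and 1 lower, where 17.3% and 12.2% of all genes were. Without overlap 4 Ras family genes were higher and 2 lower. Over all genes 23.3% were higher and 14.1% lower without overlap.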
